A study of Mus musculus with 6 samples.

Results

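Irg1 (current symbol Acod1) and Gpr84 were described in fetal mouse aortas exposed to a NOD1 ligand. They were taken as every non-control probe that the array design names Irg1, Acod1 or Gpr84, which gave 2 genes, each read by 1 probe, of 55681 non-control probes. The design holds 34797 distinct gene names, of which 21478 were tested. Both genes were chosen by their large genotype difference in log2 signal on these same 6 arrays. Their genotype differences are therefore given as a description, with no test.

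All 6 arrays held RNA of aortic arteries from C57BL/6 fetuses at embryonic stage E18.5. The dams were Nod1 -/- and had been mated with Nod1 +/- males, and each dam received 500 µg of FK565, a synthetic NOD1 ligand, under the skin 6 h before the vessels were taken. The groups were 3 Nod1 +/- and 3 Nod1 -/- littermate fetuses. Both genotypes were exposed to the ligand and had Nod1 -/- mothers, so the comparison is between fetuses with and without a working Nod1 copy, and no array came from a dam without the ligand. The null allele is not tied to a cell type by the labels. The labels do not say whether an array held 1 fetus or pooled fetuses, so p-values below measure the spread between these arrays, which may be partly technical.

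IRG1 is a mitochondrial enzyme that decarboxylates cis-aconitate, an intermediate of the TCA cycle, to itaconate. It is barely expressed in resting macrophages and is strongly induced there by microbial products and interferons, and itaconate inhibits succinate dehydrogenase and modifies KEAP1, the repressor of the oxidative stress factor NRF2. GPR84 is a cell surface receptor of monocytes, macrophages and neutrophils that responds to medium-chain fatty acids, couples to Gi proteins and is likewise induced by inflammatory stimuli. NOD1 detects peptidoglycan fragments of bacteria in the cytosol and activates NF-kB by way of RIPK2.

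The promoters of both genes are shown because the genes differed between genotypes in the same direction. They are the 250 bases before each RefSeq start site, in build GRCm38.p6, with Gpr84 matched by symbol and Irg1 by synonym. Capitals mark motif matches.
Irg1 (Acod1), chr14:103046762-103047011, plus strand: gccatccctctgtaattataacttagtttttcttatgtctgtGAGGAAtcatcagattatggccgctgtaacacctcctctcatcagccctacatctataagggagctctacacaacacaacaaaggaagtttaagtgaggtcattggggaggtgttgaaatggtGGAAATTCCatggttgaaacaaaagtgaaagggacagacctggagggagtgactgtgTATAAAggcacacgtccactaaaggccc
Gpr84, chr15:103310439-103310688, minus strand: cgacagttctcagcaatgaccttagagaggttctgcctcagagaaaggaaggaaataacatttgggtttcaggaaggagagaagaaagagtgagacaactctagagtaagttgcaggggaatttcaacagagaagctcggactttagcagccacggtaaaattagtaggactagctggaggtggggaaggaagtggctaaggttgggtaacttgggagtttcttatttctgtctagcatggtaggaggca
The Irg1 window held the kB palindrome GGAANTTCC at -85 from the start site, a match found in 0.813% of 32851 mouse promoter windows of the same length. It also held the core of the site bound by the myeloid factor PU.1, GAGGAA, at -208 and TATAAA at -28, which 23.3% and 12.4% of windows hold. The Gpr84 window held no match to any of the motifs searched. On both strands, neither window matched the NF-kB consensus (7.25% of windows), the AP-1 motif TGANTCA (6.75%), the interferon-stimulated response element (2.98%), the STAT element GAS, TTCNNNGAA (7.02%), or the C/EBP motif TTGCNNAA (9.56%). No match overlapped another. A match is a description of letters, and these windows were not assayed for binding.

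The Irg1 probe lies at chr14:103455171-103455231 of mm9, the build named in the array files, and was printed in 10 spots on each array. The processed signal is the scanner software's final brightness after background subtraction and its own corrections, in scanner units. In the Nod1 +/- aortas its median over the 10 spots was 366 in replicate 1, 307 in replicate 2 and 282 in replicate 3. In the Nod1 -/- aortas the medians were 4.35, 4.68 and 14.7. The 30 Nod1 +/- spots ran from 259 to 389 and the 30 Nod1 -/- spots from 3.29 to 19.4, so no spot of either genotype entered the range of the other. The scanner software called 30 of 30 Nod1 +/- spots and 0 of 30 Nod1 -/- spots well above background.

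Replicate spots also gave the technical spread within each array. The coefficient of variation over the 10 Irg1 spots was 4.54%, 4.52% and 5.11% on the Nod1 +/- arrays and 52.5%, 36.0% and 42.7% on the Nod1 -/- arrays. Low Irg1 signal was thus read with far wider relative error than high signal. Of the Nod1 -/- spots, 9, 7 and 9 of 10 on replicates 1 to 3 exceeded the 95th percentile of the 308 negative-control spots of their own array. In total 25 of 30 spots lay above that percentile after background subtraction, although none passed the software's stricter call. For some of these the processed signal was below its own error, as on Nod1 -/- replicate 1 (3.61, error 3.62). A Nod1 -/- replicate 2 spot at -1.05 after background subtraction had a processed signal of 4.02. The lowest processed values are thus not plain differences from background. As repeat spots of 1 probe, they do not establish expression of Irg1 in Nod1 -/- aortas. The medians of Nod1 -/- replicates 1 and 2 differed by less than the spread of their spots, and the median of replicate 3 exceeded the highest spot of both.

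The Gpr84 probe lies at chr15:103138670-103138729 of mm9, on the minus strand, and was printed in 1 spot per array. Its processed signal was 1076, 1402 and 865 in Nod1 +/- replicates 1 to 3, and 23.3, 36.6 and 15.6 in Nod1 -/- replicates 1 to 3. The genotypes did not overlap, and the dimmest Nod1 +/- array was far above the brightest Nod1 -/- array. Gpr84 was well above background on all 3 Nod1 +/- arrays and on Nod1 -/- replicates 1 and 2, but not on Nod1 -/- replicate 3. The lowest signal of any probe called well above background was 15.2, 17.0 and 24.3 on Nod1 -/- replicates 1 to 3, so the Gpr84 readings there were close to the limit of detection. No spot of either gene was saturated or marked as an outlier. With a single spot, Gpr84 has no technical spread within an array.

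**Figure D1:**
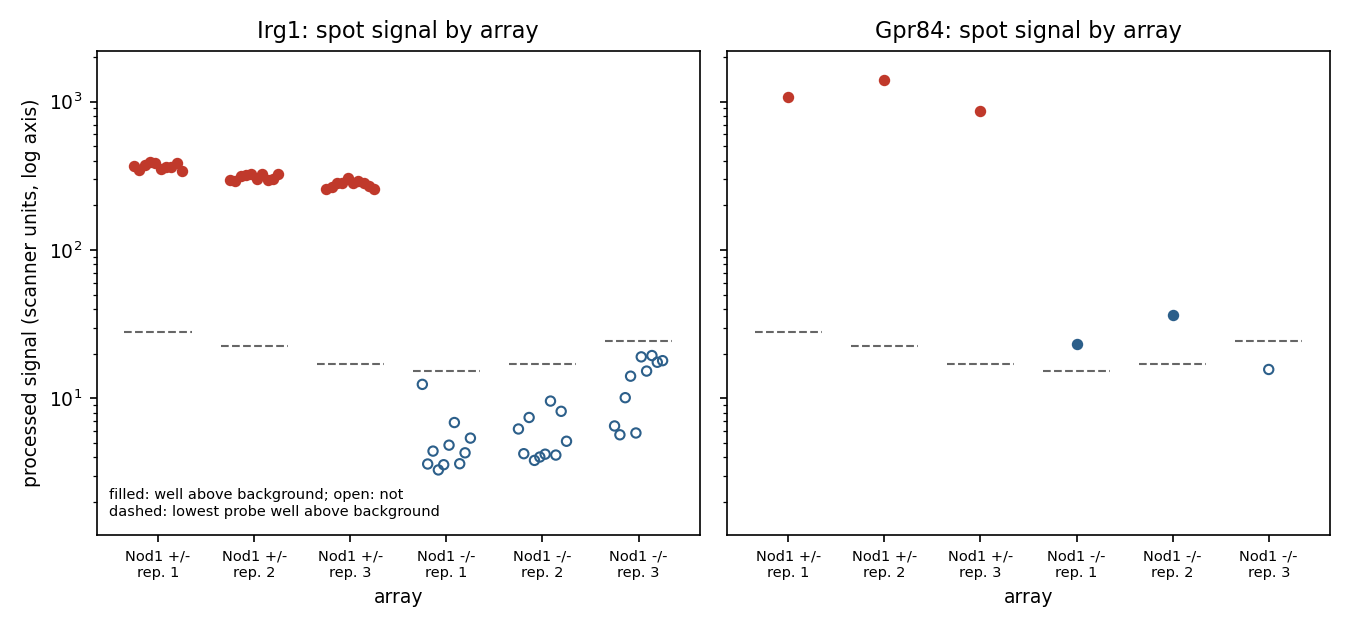
Processed signal of each Irg1 spot (left, 10 per array) and of the Gpr84 spot (right, 1 per array) by array, on a log axis in scanner units. Filled points were well above background, open points were not, and dashed lines mark the lowest signal of any probe called so on that array. Irg1 spots lie between 259 and 389 in Nod1 +/- and between 3.29 and 19.4 in Nod1 -/- aortas, and the Gpr84 spot is open only on Nod1 -/- replicate 3.

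On a log2 scale, relative to the 75th percentile of each array's non-control probes, Irg1 lay at -0.18, -0.50 and -0.42 in Nod1 +/- replicates 1 to 3. The Nod1 -/- values were -6.36, -6.35 and -5.12. The means were -0.37 ± 0.16 and -5.94 ± 0.71 (SD, n = 3), a measured difference of 5.58 with a standard error of 0.35. No Nod1 -/- array had Irg1 well above background, so the fold change is a bound, at least 17.5-fold in favour of Nod1 +/-. The bound takes, for each dim array, the higher of the probe's own signal and the lowest signal of any probe well above background.

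Gpr84 lay at 1.37, 1.69 and 1.22 in Nod1 +/- replicates 1 to 3 and at -4.08, -3.58 and -4.72 in Nod1 -/- replicates 1 to 3. The means were 1.43 ± 0.24 and -4.13 ± 0.57 (SD, n = 3), a difference of 5.55 with a standard error of 0.30, or 46.9-fold. Against only the 2 Nod1 -/- arrays on which the probe was well above background, Gpr84 was 38.2-fold higher in Nod1 +/- aortas. For both genes every Nod1 +/- array lay above every Nod1 -/- array, as did 16.3% of all genes tested. That gap was what selected them, so nothing is read from it.

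Irg1 and Gpr84 did not rank the arrays alike within a genotype. Among Nod1 +/- aortas Irg1 was highest in replicate 1 and Gpr84 in replicate 2. Among Nod1 -/- aortas replicate 3 had the highest Irg1 value, by 0.82 above its group's mean, and the lowest Gpr84 value, by 0.59 below. Neither reading of that array was well above background. The authors' deposited intensity table gave the same split, with Irg1 at 361, 295 and 305 against 5.53, 6.23 and 9.90 and Gpr84 at 1073, 1325 and 959 against 23.2, 35.9 and 13.2.

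**Figure D2:**
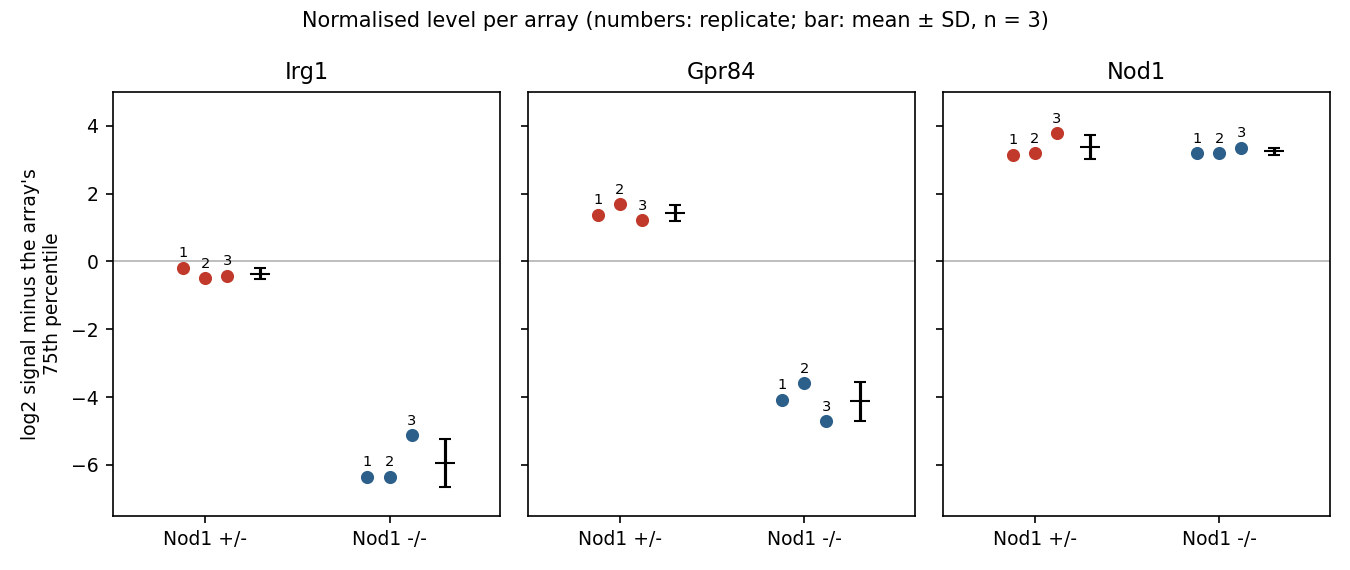
Normalised level (log2 signal minus the array's 75th percentile) of Irg1, Gpr84 and Nod1 on each array, numbered by replicate, with the mean and SD of each genotype (n = 3) as a bar. Irg1 falls to a mean of -5.94 and Gpr84 to -4.13 in Nod1 -/- aortas, whereas Nod1 overlaps between genotypes.

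The size of both gaps depended on how background was handled, while their direction did not. With normexp background correction and an offset of 50, which lifts dim signals, the difference was 2.41 for Irg1 and 3.71 for Gpr84. The slide had its arrays in 2 rows, with Nod1 -/- replicates 1 and 2 in row 1 and the remaining 4 in row 2. With the row as a block, only Nod1 -/- replicate 3 is compared with the Nod1 +/- arrays, and the difference was 4.75 for Irg1 and 6.15 for Gpr84.

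Nod1 itself, read by 1 probe at chr6:54874007-54874066 of mm9, was at 3.38 ± 0.35 in Nod1 +/- and 3.25 ± 0.09 in Nod1 -/- aortas (SD, n = 3; limma's adjusted p = 0.648). Which exons the allele removes is not given in the sources used here, so this probe does not check the genotypes. Across the array 4012 of 21478 genes, 18.7%, passed limma's test at an adjusted p under 0.05, with 1646 higher in Nod1 +/- aortas (7.66%) and 2366 lower (11%). Over all genes the median difference was -0.10. Scaling arrays by their median instead raised every difference by 0.10 and gave 1580 higher and 926 lower genes. The count of changed genes also fell when 1 array was left out, to 1459 (Nod1 -/- replicate 2), 1856 (Nod1 -/- replicate 1), 2084 (Nod1 +/- replicate 2) and 2142 (Nod1 +/- replicate 1). The 75th percentile of signal ran from 372 to 435 on Nod1 +/- and from 393 to 439 on Nod1 -/- arrays, and 48.6% to 54.7% and 53.7% to 58.3% of probes were well above background.

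Around Irg1, enzymes that make or use its substrate had small measured differences, from -0.51 to 0.30. Of 24 TCA cycle genes, all tested, 0 were higher and 1 was lower in Nod1 +/- aortas by limma, against 7.66% and 11% of all genes, and the list's median difference was -0.10, as for all genes. The lower gene was Slc25a11, the mitochondrial 2-oxoglutarate carrier (difference -0.42, standard error 0.10, adjusted p = 0.0335). That call was lost when any of the 6 arrays was left out, with adjusted p between 0.0624 and 0.112. Sdha, the catalytic subunit of the succinate dehydrogenase that itaconate inhibits, is named for this role after its value was seen and differed by 0.11 (adjusted p = 0.559).

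Genes known to carry, sense or respond to itaconate moved in both directions. Of 16 listed, 14 were tested by limma, 4 rose and 2 fell, where 7.66% of all genes rose and 11% fell, and the median difference was 0.04. Slc13a3, a sodium-coupled dicarboxylate carrier that also transports itaconate, was 5.67-fold higher in Nod1 +/- aortas (difference 2.50, standard error 0.19, adjusted p = 0.00143). Txnrd1, a thioredoxin reductase under NRF2 control, was 1.77-fold higher (adjusted p = 0.00344). Nqo1, a quinone reductase and another NRF2 target, was lower, with a difference of -1.13 (adjusted p = 0.00197). Sugct, which can transfer coenzyme A to itaconate, differed by -0.87 (adjusted p = 0.0226). The stress factor Atf3 and Nfkbiz, which encodes the NF-kB cofactor IkB-zeta, rose by 1.26 (adjusted p = 0.0177) and 1.01 (adjusted p = 0.00878), and Atf3 also counts among the inducing factors below. Sugct (named 5033411D12Rik in the array design) and Atf3 were named after their values were seen. Keap1, Nfe2l2 (NRF2), Hmox1, Gclm, Gclc and Srxn1 did not pass, with differences between -0.21 and 0.08. Oxgr1, a receptor for itaconate, and Slc7a11 were not well above background on enough arrays to be tested. Within slide row 2 the adjusted p of Nfkbiz was 0.072, and without both first replicates that of Txnrd1 was 0.0678. Sugct lost its call, leaving 1 lower member, on leaving out replicate 2 or 3 of Nod1 +/-, or replicate 1 or 3 of Nod1 -/- (adjusted p 0.0545 to 0.0682). Atf3 lost it on leaving out replicate 1 of either genotype or Nod1 -/- replicate 2 (adjusted p 0.0551 to 0.0708).

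Several enzymes and carriers known from activated myeloid metabolism were higher. Of 28 listed, 24 were tested by limma, 13 rose (7.66% of all genes did), 2 fell (11%) and 9 did not pass, with a median difference of 0.74. Ch25h, which makes 25-hydroxycholesterol, was 23.3-fold higher (adjusted p = 4e-04), Ptgs2, the inducible cyclooxygenase, 4.09-fold (adjusted p = 0.000557) and Sphk1, a sphingosine kinase, 3.17-fold (adjusted p = 0.00111). On 2 of the 3 Nod1 -/- arrays Ptgs2 was well above background. Ass1, which makes argininosuccinate for arginine synthesis, was lower, with a difference of -1.35 (adjusted p = 0.00186). Without Nod1 -/- replicate 2 the higher count was 8. On leaving out replicate 1 or 3 of Nod1 +/-, or replicate 1 or 2 of Nod1 -/-, the lower count was 1.

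Around Gpr84, the enzymes that break down fatty acids had measured differences from -0.73 to 0.44. Of 26 genes of fatty acid oxidation 24 were tested by limma, 0 rose and 2 fell, under the 7.66% and 11% of all genes, and the median difference was -0.23, against -0.10 for all genes. Crot, a peroxisomal acyltransferase for medium-chain acyl groups, differed by -0.73 (adjusted p = 0.0182), and Ehhadh, a peroxisomal enzyme of beta-oxidation, by -0.51 (adjusted p = 0.0315). With median scaling neither passed, at adjusted p = 0.0902 for Crot and 0.195 for Ehhadh. The count was 0 on leaving out replicate 1 of either genotype or Nod1 -/- replicate 2, and 1 on leaving out Nod1 +/- replicate 2 or 3. Acadm, the medium-chain acyl-CoA dehydrogenase, is named for its role after its value was seen and differed by -0.43 (adjusted p = 0.11).

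Other receptors for fatty acids and metabolites had measured differences from -1.65 to 1.07. Of 14 listed, 7 were detected on enough arrays to be tested, and by limma 1 rose and 1 fell, near the 7.66% and 11% of all genes. Gpr132, a receptor for lysophospholipids and oxidised fatty acids, rose 1.81-fold (adjusted p = 0.00909), a call lost within slide row 2 (adjusted p = 0.082) and without both first replicates (adjusted p = 0.064). Gpr183, the receptor for oxysterols made from 25-hydroxycholesterol, was lower by a difference of -1.65 (adjusted p = 0.00597). Ffar2 and Hcar2, receptors for short-chain fatty acids and for nicotinate and hydroxybutyrate, were at differences of 0.83 and 1.07 that did not pass (adjusted p = 0.188 and 0.192). Ffar1, Ffar4, Hcar1, Sucnr1, Oxgr1, Gpr55 and Gpr119 were not tested.

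Several chemoattractant receptors, many of which like GPR84 signal through Gi in phagocytes, were higher. Of 17 listed, 11 were tested by limma, 7 rose and 1 fell, where 7.66% of all genes rose and 11% fell, and the median difference was 1.27. Of the 9 well above background on all 6 arrays, 6 rose. The formyl peptide receptors Fpr1 and Fpr2 rose 6.41-fold (adjusted p = 0.000564) and 8.54-fold (adjusted p = 0.00261), the complement receptor C5ar1 6.59-fold (adjusted p = 0.00123) and the leukotriene B4 receptor Ltb4r1 7.55-fold (adjusted p = 0.00115). Cx3cr1, the fractalkine receptor of tissue macrophages, was the member that fell, with a difference of -2.05 (adjusted p = 0.00446).

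Among 21 tested genes of Gi signalling, of 23 listed, 6 rose and 2 fell by limma, with a median difference of 0.25. Of all genes 7.66% rose and 11% fell, so the share that fell was near the background. Rgs16, which speeds the shut-off of Gi subunits, rose 7.39-fold (adjusted p = 0.00111), and Pik3r5, the regulatory subunit of phosphoinositide 3-kinase gamma, rose 6.42-fold (adjusted p = 0.00163). The receptor kinases Grk5 and Grk6 rose 2.31-fold (adjusted p = 0.0106) and 1.45-fold (adjusted p = 0.0198). Grk5 had an adjusted p of 0.0721 within slide row 2. Grk6 lost its call on leaving out replicate 2 of either genotype or Nod1 -/- replicate 1, with adjusted p between 0.0665 and 0.0759. The higher count was then 3 for Nod1 +/- replicate 2 and for Nod1 -/- replicate 1. The lower count was 0 without replicate 1 or 2 of either genotype and 1 without replicate 3 of either genotype.

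Transcription factors known to induce Irg1 or Gpr84 were mostly higher. Of 24 listed, 23 were tested by limma, 15 rose and 0 fell, where 7.66% of all genes rose, and the median difference was 0.93. The NF-kB subunits Nfkb2 and Relb rose 6.52-fold (adjusted p = 0.000329) and 8.10-fold (adjusted p = 0.000382), the interferon regulatory factor Irf1 3.20-fold (adjusted p = 0.00132) and the AP-1 subunit Fosl2 2.85-fold (adjusted p = 0.00248). A further Relb probe gave 3.02 on the log2 scale, but the last gave -0.47 and did not pass (adjusted p = 0.0843 over probes). Stat2, which carries the interferon signal, was at a difference of 0.81 that did not pass (adjusted p = 0.0511). Without Nod1 -/- replicate 2 the count of higher factors was 10, and without both first replicates it was 7.

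Other transcripts known from activated myeloid cells were mostly higher with Irg1 and Gpr84. The RNA came from bulk aortas, and which cells made these transcripts was not tested. Of 30 listed, 24 were tested by limma, 20 rose and 0 fell, where 7.66% of all genes rose and 11% fell. The list's median difference was 2.24, and 2.04 with genes dim in a genotype set at their bound. The cytokine Il1b was at least 8.95-fold higher (adjusted p = 0.000391) and the neutrophil-attracting chemokine Cxcl2 at least 4.16-fold (adjusted p = 0.00072), but both were detected only on Nod1 +/- arrays, through which they entered the test. Ch25h and Ptgs2 are in this list too. Requiring detection on all 6 arrays left 14 members, of which 10 rose, against 9.36% of all such genes.

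**Figure D3:**
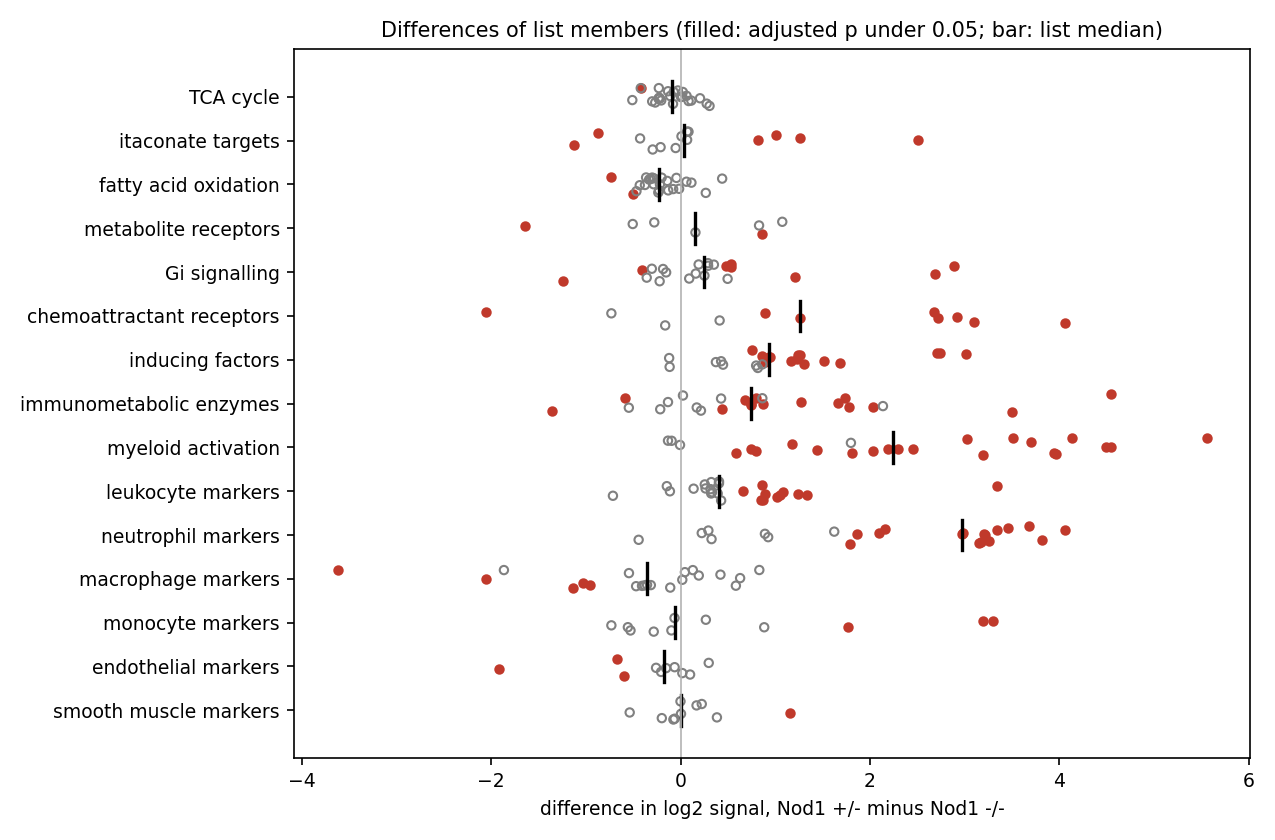
Difference in log2 signal, Nod1 +/- minus Nod1 -/-, of each tested member of 15 gene lists. Filled points passed limma's test at an adjusted p under 0.05, open points did not, and bars are list medians, from -0.35 for macrophage markers to 2.97 for neutrophil markers. Genes in several lists are drawn in each, and differences of genes dim in a genotype are the measured ones.

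Most tested neutrophil markers were higher in the aortas with high Irg1 and Gpr84. In a bulk vessel, fewer cells of a type and less RNA per cell cannot be told apart. Of 26 neutrophil markers 23 were tested by limma, and 16 rose and 0 fell, where 7.66% of all genes rose and 11% fell. The median difference of the 23 markers was 2.97, and 2.16 once dim genes were set at their bound. Among them the cystatin-like Stfa2 rose 10.2-fold (adjusted p = 0.000611) and Stfa1 7.85-fold (adjusted p = 0.00115), the calprotectin subunit S100a9 9.03-fold (adjusted p = 0.000822) and the resistin-like Retnlg 14.1-fold (adjusted p = 0.000882). The summed level of the list, in multiples of the array's 75th percentile, ran from 349 to 416 in Nod1 +/- and from 171 to 225 in Nod1 -/- aortas, so the groups did not overlap. The granule protease and peroxidase genes Elane and Mpo, named after their values were seen, did not pass (differences 0.22 and 0.29, adjusted p = 0.499 and 0.705). In all, 7 of the 23 tested markers did not pass. Ltf, Ngp and Cebpe, also named afterwards, rose 7.88-fold, 4.48-fold and 4.26-fold (adjusted p = 0.00318, 0.00909 and 0.00214). Csf3r, the receptor for the neutrophil growth factor G-CSF, likewise named afterwards, was at -0.44 (adjusted p = 0.217). Csf3r had the highest mean of the list in both genotypes, 6.88 in Nod1 +/- and 7.32 in Nod1 -/- on the log2 scale. It therefore weighs heavily in the summed level. Cxcr2, the neutrophil chemokine receptor, also named afterwards, was detected only on Nod1 +/- arrays and was at least 12.4-fold higher there (adjusted p = 0.00376). A gene detected in only 1 genotype entered the test through it and had to differ. Among the 19 neutrophil markers well above background on all 6 arrays, 13 rose, where 9.36% of all such genes did. The part of neutrophil transcripts in the Irg1 and Gpr84 differences was not tested.

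No macrophage marker passed as higher with Irg1 and Gpr84. Of 22 listed, 21 were tested by limma, 0 rose and 5 fell, where 11% of all genes fell, and the median difference was -0.35. Besides Cx3cr1 they included Gpr34, a lysophosphatidylserine receptor, detected only on Nod1 -/- arrays and at least 5.01-fold lower (adjusted p = 0.00147), Trem2, a lipid receptor (-1.14, adjusted p = 0.0231), Lyve1, a hyaluronan receptor (-1.03, adjusted p = 0.0203), and Csf1r, the receptor for the macrophage growth factor (-0.96, adjusted p = 0.0295), whose other 2 probes did not pass and which was named after its value was seen. Csf1r lost its call on leaving out any array but Nod1 -/- replicate 3 (adjusted p 0.0587 to 0.101). Siglec1, Fcgr1 and Mrc1, named after their values were seen, had differences of 0.83, 0.63 and 0.58. They did not pass (adjusted p = 0.105, 0.168 and 0.117). Under 1 alternative 1 member of the list passed as higher. Of the 19 well above background on all 6 arrays, 4 fell, where 13.4% of all such genes did. The summed level was 92.6 to 106.8 in Nod1 +/- and 95.7 to 174 in Nod1 -/- aortas, which overlap. The count that fell was 2 on leaving out replicate 1 of either genotype or Nod1 -/- replicate 2, 3 on leaving out Nod1 +/- replicate 3, and 8 on leaving out Nod1 -/- replicate 3. Trem2 lost its call without replicate 1 of either genotype, Nod1 +/- replicate 3 or Nod1 -/- replicate 2 (adjusted p 0.0562 to 0.0876), and Lyve1 without replicate 1 or 2 of either genotype (adjusted p 0.0515 to 0.0795).

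Of 13 monocyte markers 11 were tested by limma, with a median difference of -0.06. Of these, 3 rose and 0 fell, where 7.66% of all genes rose and 11% fell. Among those that rose were Plac8, 3.40-fold higher (adjusted p = 0.00596), and Hp (haptoglobin), 9.87-fold (adjusted p = 0.00668, and 0.0508 without both first replicates), which neutrophils also express. For Itgam, an integrin of monocytes and neutrophils, the probe used did not pass (-0.56, adjusted p = 0.0739), while its other 2 probes rose (1.11 and 2.25, adjusted p = 0.0405 and 0.00287 over probes). The summed level was 166 to 213 in Nod1 +/- and 133 to 154 in Nod1 -/- aortas. Hp was the brightest member in Nod1 +/- aortas, with log2 means of 5.81 there and 2.51 in Nod1 -/-, so it weighs heavily in that sum. The part of monocyte transcripts in the Irg1 and Gpr84 differences was not tested.

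Of 25 general leukocyte markers, all tested by limma, 11 rose, 0 fell and 14 did not pass. Of all genes 7.66% rose and 11% fell, and the list's median difference was 0.40. Of the 22 well above background on all 6 arrays, 10 rose, where 9.36% of all such genes did. Ptprc (CD45), carried by all leukocytes, differed by 0.26 (adjusted p = 0.503). Itgax, an integrin subunit, was detected only on Nod1 +/- arrays, at least 7.02-fold higher (adjusted p = 0.00237), and the oxidase subunit Ncf4 rose 2.36-fold (adjusted p = 0.0106). The signalling proteins Hcls1 and Vav1 rose 2.07-fold (adjusted p = 0.0149) and 1.80-fold (adjusted p = 0.0118). The summed level was 97.2 to 125 in Nod1 +/- and 55.7 to 97.5 in Nod1 -/- aortas, so the ranges met. On leaving out Nod1 -/- replicate 2 the count was 4 (Hcls1 then had an adjusted p of 0.0523), and for Nod1 +/- replicate 1 or 2 it was 5. Leaving out both first replicates gave 1, when Ncf4, Hcls1 and Vav1 had adjusted p of 0.0543, 0.0692 and 0.0794.

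Vessel markers were present on all arrays. All 10 smooth muscle markers were well above background on every array, and 1 rose by limma, near the 7.66% of all genes, the intermediate filament gene Des (1.15, adjusted p = 0.0335). Of 10 endothelial markers, all well above background on every array, 3 fell by limma, where 11% of all genes fell. These were the angiopoietin receptor Tek (-1.92, adjusted p = 0.00206), its relative Tie1 (-0.60, adjusted p = 0.0335) and the tight junction gene Cldn5 (-0.67, adjusted p = 0.0382). For Vwf, the von Willebrand factor gene, the probe used was at -0.15 and did not pass, while another fell (-1.26, adjusted p = 0.00325 over probes). Their summed level was 195 to 250 in Nod1 +/- and 228 to 258 in Nod1 -/- aortas for endothelium, and 1084 to 1155 and 1117 to 1192 for smooth muscle. Of 16 tested lymphoid, mast cell and dendritic markers, 0 rose and 1 fell, under the 11% of all genes. The lower gene was the B-cell receptor subunit Cd79b (-1.09, adjusted p = 0.0488). Summed levels were 127 to 143 in Nod1 +/- and 143 to 162 in Nod1 -/- aortas. Siglech had the list's highest means, 6.26 and 6.48. Its probe used was at -0.21 and did not pass, while another fell (-2.01, adjusted p = 0.0324 over probes). Des lost its call without replicate 1 or 2 of either genotype (adjusted p 0.0761 to 0.11), and Cd79b without any array but Nod1 -/- replicate 3 (0.0781 to 0.118). Tie1 lost it without any array but Nod1 +/- replicate 2 (0.0637 to 0.112) and Cldn5 without any but Nod1 +/- replicate 3 (0.0514 to 0.117).

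Within 500 kb of the Irg1 probe on mm9, 4 named genes were tested by limma, 0 rose and 1 fell, where 7.66% of all genes rose and 11% fell. The lower gene was Kctd12, which encodes a subunit of GABA-B receptors, 79.1 kb away on the side of lower coordinates (difference -1.25, standard error 0.12, adjusted p = 0.00247). The ubiquitin ligase gene Mycbp2, at 57.8 kb on the other side, differed by 0.35 and did not pass (adjusted p = 0.0557).

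Within 500 kb of the Gpr84 probe, 16 named genes were tested by limma, 2 rose and 0 fell, and their median difference was -0.19. The share that rose was close to the 7.66% of all genes, of which 11% fell. The nearest were Zfp385a, a zinc finger gene at 6.33 kb (-0.20, adjusted p = 0.392), and Copz1, a coatomer subunit gene at 8.59 kb on the other side (-0.27, adjusted p = 0.141). Nfe2, a transcription factor of megakaryocytes and erythroid cells, rose by 1.30 (adjusted p = 0.0254). Glycam1, a mucin-like gene 255 kb away, was detected only on Nod1 +/- arrays, through which it entered the test, and was at least 3.30-fold higher (adjusted p = 0.00193). Itga5, the alpha subunit of a fibronectin receptor, was at 0.62 and did not pass (adjusted p = 0.0819), though it did without Nod1 -/- replicate 3 (adjusted p = 0.0396). The other 11, among them Hoxc4, Hoxc5, Hoxc6 and Hoxc9, Cbx5, Smug1, Nckap1l, Pde1b, Ppp1r1a and Hnrnpa1, did not pass and had differences between -0.69 and 0.12. Gm5643, the remaining gene, is a near copy of Hnrnpa1, so both readings are uncertain. Nfe2 lost its call on leaving out replicate 1 or 2 of Nod1 +/-, or replicate 1 or 3 of Nod1 -/- (adjusted p 0.0583 to 0.0813).

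**Figure D4:**
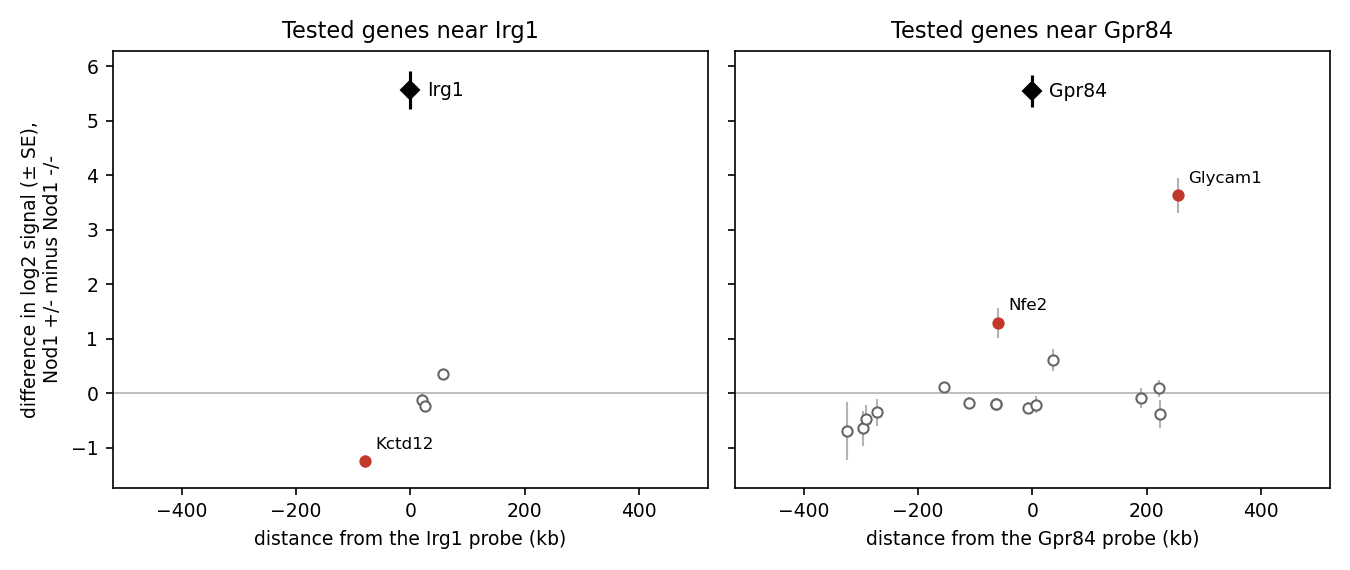
Difference in log2 signal (± standard error), Nod1 +/- minus Nod1 -/-, of each tested named gene against its distance in kb from the Irg1 probe (left) or the Gpr84 probe (right), with the gene itself as a black diamond. Filled points passed limma's test. Kctd12, Nfe2 and Glycam1 are labelled. The values of Irg1, Glycam1 and Gpr84 are the measured ones, and for Irg1 and Glycam1, dim on all Nod1 -/- arrays, the fold change is a bound.

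The genes most like each of the 2 over the 6 arrays were found among 15344 named genes by the root mean square difference between profiles, after each gene's own mean was subtracted. For Gpr84 they were Serpina3n, a serine protease inhibitor (0.17 on the log2 scale), the metallothionein Mt2 (0.20), the chemokine Ccl2 (0.28), 2010005H15Rik (0.33) and the chemokine Cxcl10 (0.43). For Irg1 they were the neutrophil chemokine Cxcl1 (0.40), the oxidised lipoprotein receptor Olr1 (0.48), the keratin-associated gene Krtap11-1 (0.48), 2010005H15Rik (0.53) and Ceacam10 (0.54). Olr1, Krtap11-1 and Ceacam10 were, like Irg1, dim on all Nod1 -/- arrays, where all 3 had their highest value in replicate 3. Serpina3n, Mt2, Ccl2 and Cxcl10 instead had their lowest Nod1 -/- value in replicate 3, as Gpr84 did. Irg1 and Gpr84 were 0.75 apart, which made Gpr84 the 17th closest gene to Irg1 and Irg1 the 20th closest to Gpr84. All profiles share the same 6 arrays and scaling, and a likeness over 2 groups of 3 is a description, with no test.

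**Figure D5:**
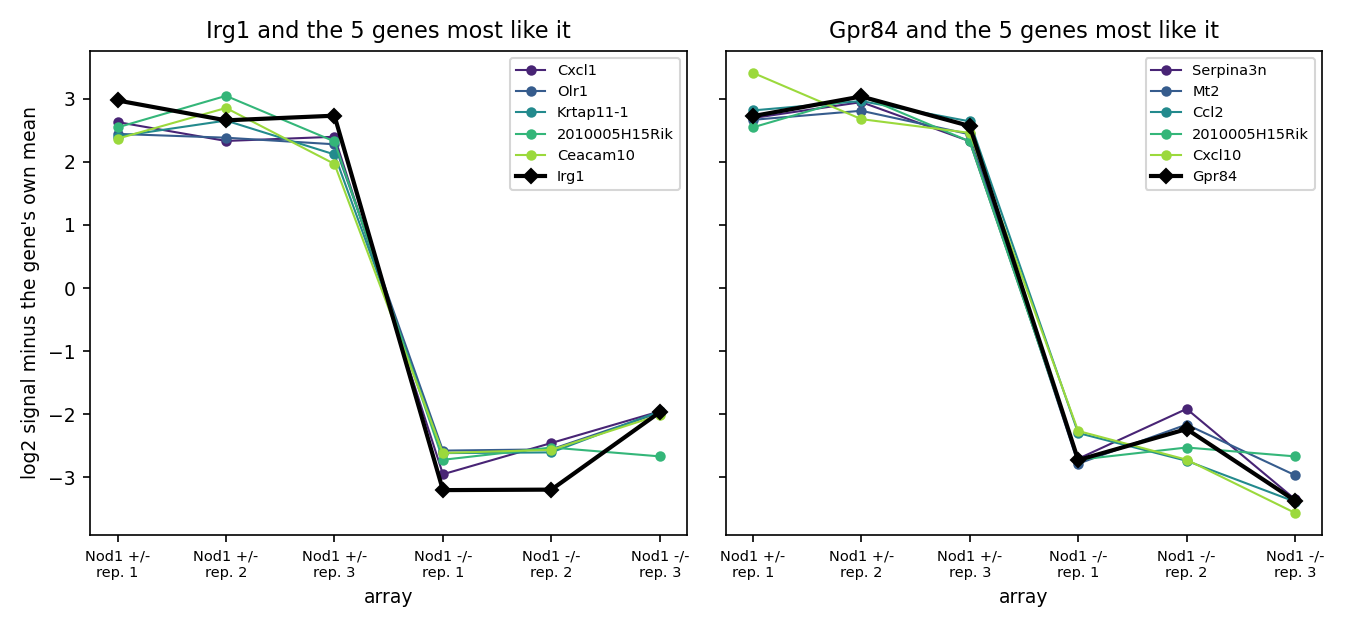
Log2 signal minus each gene's own mean over the 6 arrays, for Irg1 (left, black) and Gpr84 (right, black) and the 5 named genes with the smallest root mean square difference from each. The profiles part mainly on the Nod1 -/- arrays, where replicate 3 is the highest for Irg1 and the lowest for Gpr84.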

How the data were processed

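RNA from fetal aortic arteries was hybridised to 1-colour Cy3 Agilent arrays, 3 per genotype. The deposited scanner files give each spot's linear intensity after background subtraction. The program was Agilent Feature Extraction, version 10.7.1.1 in the file headers and 9.5.1.1 in the submitters' processing notes. Headers name mm9, 1 slide and 1 scan time. The authors' deposited intensity table, whose sorted columns agree within a ratio of 1.00069, served as an alternative.

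Control and outlier spots were left out (134 of 55681 probes had no usable spot on some array), spots of a probe were averaged in log2, and each array's 75th percentile was subtracted. Probes well above background on at least 3 of 6 arrays were kept (30166), and a gene was its kept probe with the highest mean, under the array design's name. Genotypes were compared with limma 3.58.1 in R 4.3.3 with Benjamini-Hochberg adjustment over 21478 genes. Precision is limited by the number of arrays. The fit was tested on simulated data.

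Members and gene lists were chosen with earlier results of these data known. From each list the text names the changed members lowest in p, at most 4, or 2 where none changed, plus tested named genes within 500 kb of a member and the 5 most like it. A few genes that the rule takes are not reported here. Alternatives covered background correction, scaling, dim-probe filters, the gene summary, a trended robust prior, replicate and slide-row blocks, the deposited table and leaving out arrays.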

Additional observations from a re-analysis of the deposited data

How the results depend on the processing

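Irg1 and Gpr84 were higher in Nod1 +/- aortas under every alternative that gave them a value. A filter requiring detection on all 6 arrays removed both. Leaving out 1 array at a time gave 5.37 to 5.99 for Irg1 and 5.26 to 5.82 for Gpr84. Normexp correction with an offset of 50 gave 2.41 and 3.71, and the parts of the background method and of the offset were not separated. The slide row as a block, which drops Nod1 -/- replicates 1 and 2 from the comparison, gave 4.75 and 6.15. Changed genes numbered 4012, with 1646 higher and 2366 lower. They numbered 2506 with median scaling (926 lower), 1636 with no filter on dim probes (802 higher, 834 lower; 34743 genes tested), 1033 with the row block (606 and 427), and 641 without both first replicates (409 and 232), an alternative chosen after seeing the data. Leaving out 1 array gave 1459 to 3387 changed genes, 739 to 1286 higher and 720 to 2101 lower. Apart from fewer arrays or more genes tested, the cause was not tested. With the replicate number as a block 4040 genes changed and both members' differences were the same. Deviations of same-numbered arrays correlated at 0.08, 0.28 and 0.11, and those of other pairs between -0.31 and 0.13. Nod1 +/- replicate 3 correlated best with Nod1 -/- replicate 1 (0.13). With 3 arrays per genotype these values cannot show whether same-numbered arrays were paired. Of the genes that passed, 63 taken by the naming rule or named besides were followed, without Ltf, Ngp and Cebpe. Of these 63, 41 kept their call under every one of up to 17 alternatives that tested them. The call was lost by 17 with the row block, by 6 with the replicate block and by 21 without both first replicates. None of the 63 changed direction. Signal over background limits Irg1 in all, and Gpr84 in 1, of the Nod1 -/- aortas.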
